A study of Rhodotorula toruloides with 2 samples.

Results

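Rhodotorula toruloides, a red basidiomycete yeast that stores oil and was long called Rhodosporidium toruloides, was sampled from chemostats (vessels fed and drained at equal rates), and its genes described as chaperones, heat shock factors or antioxidant enzymes are given here. They were all genes in the authors' deposited table whose best KEGG or BLAST description contains a chaperone, heat shock, DnaJ, stress-induced, catalase, superoxide, peroxidase, peroxiredoxin, thioredoxin, glutaredoxin, glutathione or universal stress term, or HSP with a number, without genes whose best hit is a proteophosphoglycan. The rule gave 31 of the 1402 listed genes. Both libraries came from total RNA of wild-type strain AS 2.1389. The Pi-limited-labelled library came, per its label, from culture limited by inorganic phosphate (Pi), and the Pi-replete-labelled library from culture with ample Pi. There was 1 library per condition and the labels mention no replicate cultures, so no difference could be set against a spread between cultures. The study asks how Pi supply alters gene expression while this yeast stores lipid.

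The Pi-limited-labelled library held 5892590 counts and the Pi-replete-labelled library 5641377, as worked out from the deposited counts, lengths and RPKM, a level scaled to gene length and library total. The table holds only genes past a 2-fold difference and a false discovery rate threshold, 17.6% of the 7970 genes the authors tested, so every member differed at least 2-fold by construction, and chaperone and antioxidant genes under that difference are not analysed here. Genes that take up Pi or release it from organic compounds are known in fungi to be induced by Pi shortage, yet 9 of the 10 listed here were lower in the Pi-limited-labelled library (median log2 ratio -4.13). The largest ratio was that of a phosphate symporter (RHTO_01284), with 22 counts there and 5797 in the Pi-replete-labelled library. The gene with the other direction, a phytase (RHTO_00655), had 15 and 1 counts. In the deposited headers the Pi-limited-labelled library is named control_F3A and the Pi-replete-labelled library P0A. Directions are therefore given by the label a library carries. Whether the 2 labels were exchanged cannot be told from these files, and if they were, every direction given here would reverse. Folds compare counts divided by the library total, and their exact 95% intervals cover counting error only. Where a pair of values follows a gene, that of the Pi-limited-labelled library comes first. All values are relative to the library total, and RNA per cell was not measured.

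Chaperones bind unfolded or newly made proteins and keep them from clumping. Heat shock protein 70 takes up such chains with the help of J proteins, which carry a DnaJ domain and stimulate its ATPase, and hands some of them on to heat shock protein 90 (HSP90), which matures kinases, receptors and other clients. Heat shock factors are the transcription factors that switch many chaperone genes on when proteins misfold. Antioxidant enzymes remove reactive oxygen species: catalase and peroxidases destroy peroxides, thioredoxins reduce disulfides, and glutathione S-transferases join the thiol peptide glutathione to reactive compounds.

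HSP90 was 3.00-fold higher in the Pi-replete-labelled library, whereas all 5 genes described as heat shock factors were 2.37- to 25.3-fold higher in the Pi-limited-labelled library. J proteins divided evenly, with 4 of 8 higher in each library. Catalase and glutathione peroxidase were higher in the Pi-limited-labelled library, and 3 of the 5 glutathione S-transferases were higher in the Pi-replete-labelled library. In all, 20 of the 31 members were higher in the Pi-limited-labelled library, or 64.5%, beside 58.3% of all listed genes, and 11 were lower, or 35.5%, beside 41.7% of all listed genes. These shares are near those of the whole table, and so is the median log2 ratio (labelled Pi-limited over labelled Pi-replete), 1.20 for the members and 1.10 for all listed genes. Setting the median ratio of the listed genes to 0 moves every log2 ratio by -1.10 and leaves 6 members at least 2-fold higher and 11 lower (35.3% higher), beside 182 and 585 of all listed genes (23.7% higher). No member can join the lower side under that shift, since the table lacks ratios under 2-fold. Differences of at least 4-fold were held by 6 members in the direction of the Pi-limited-labelled library, where 14.1% of listed genes had them, and by 4 in the other direction, where 19.8% had them.

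**Figure D1:**
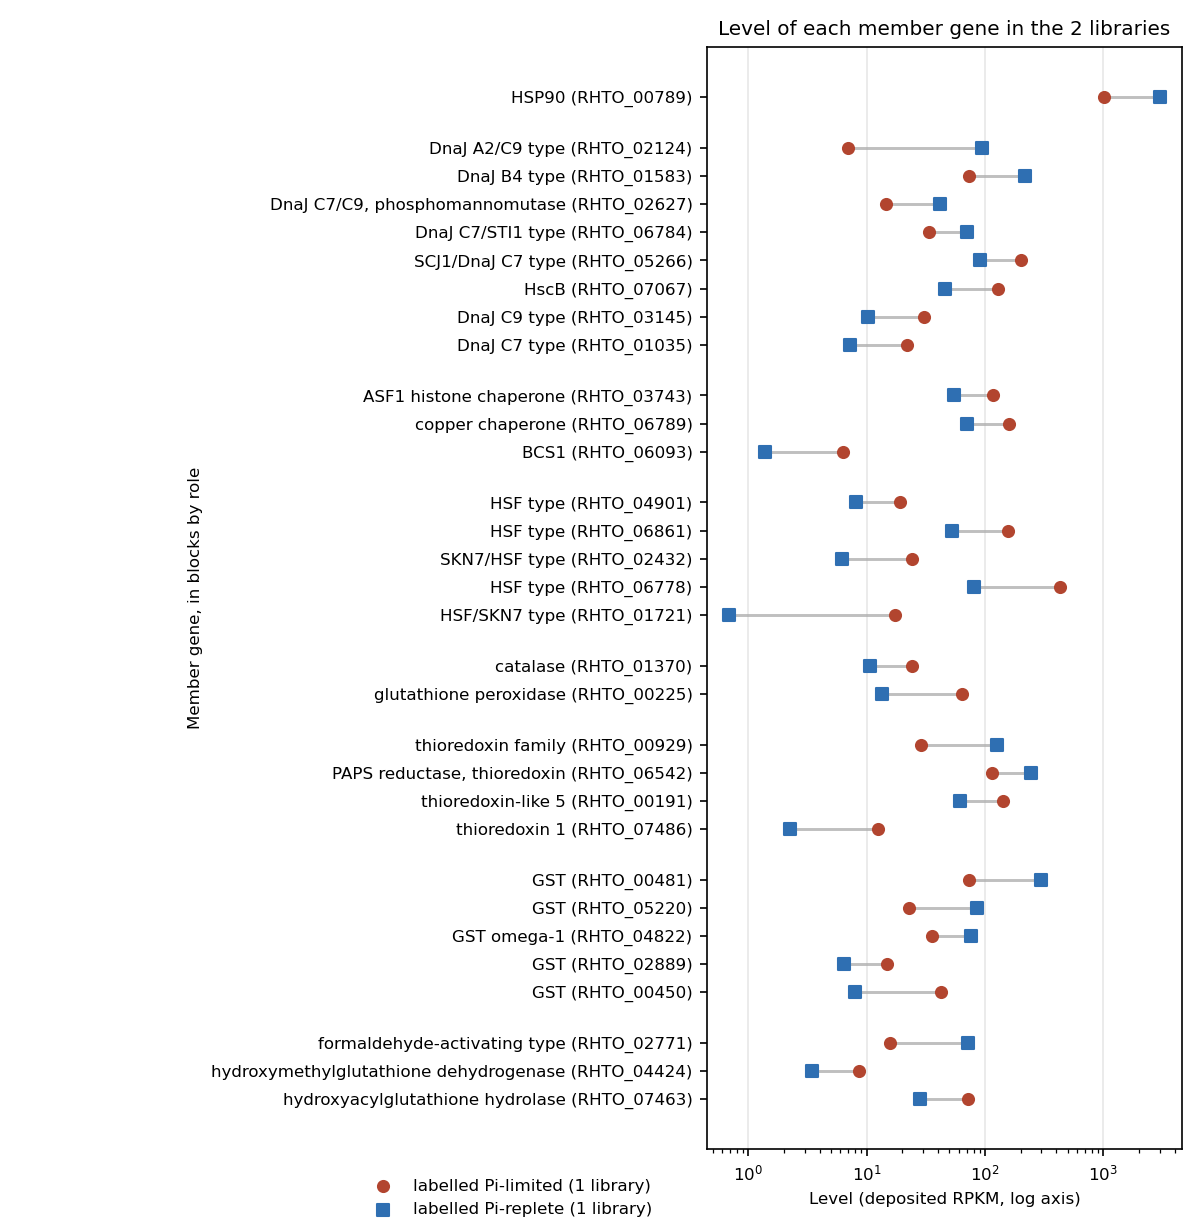
Level of each of the 31 genes as deposited RPKM (log axis) in the Pi-limited-labelled library (circles) and the Pi-replete-labelled library (squares), in blocks by role, with 1 library per condition. HSP90 stands above all other members in both libraries, at 1014 and 3036 RPKM, and all 5 genes described as heat shock factors have the circle to the right of the square.

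HSP90 (RHTO_00789) was the dominant transcript of the group. It had 12508 counts in the Pi-limited-labelled library and 35867 counts in the Pi-replete-labelled library, which made it the gene with rank 1 by count among the 1402 listed genes in the latter and rank 8 in the former. Its share of all counts was 0.212% in the Pi-limited-labelled library and 0.636% in the Pi-replete-labelled library, with an interval of the fold from 2.93 to 3.06. This gene has HSP90 as its best hit (from Glaciozyma antarctica) and is described by KEGG as HtpG, the bacterial member of the same family. The terms for HSP70, small heat shock proteins and chaperonins matched 0 listed descriptions, so those chaperones were not analysed here. All 31 members together had 24979 counts (exact Poisson interval 24670 to 25291) in the Pi-limited-labelled library and 46588 counts (46166 to 47013) in the Pi-replete-labelled library, so their sum was 1.95-fold (1.92 to 1.98) higher in the latter. HSP90 alone made up 50.1% and 77.0% of these counts. Without it the sum was 12471 against 10721 counts and turned to 1.11-fold (1.09 to 1.14) higher in the Pi-limited-labelled library.

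J proteins and the tetratricopeptide co-chaperones described with them took both directions. The member with the largest ratio toward the Pi-replete-labelled library, RHTO_02124, had 50 counts (6.95 RPKM) in the Pi-limited-labelled library and 649 counts (94.2 RPKM) in the Pi-replete-labelled library, a 13.6-fold difference (10.2 to 18.5). KEGG describes it both as DnaJ subfamily A member 2, a general HSP70 partner, and as subfamily C member 9, in human a co-chaperone for histones; its BLAST hit is an unnamed protein. RHTO_01583, described as DnaJ subfamily B member 4, was the J protein with the most counts in the Pi-replete-labelled library, with 505 and 1441 counts (73.1 and 218 RPKM), 2.98-fold (2.69 to 3.31) higher there. That fold is close to the 3.00 of HSP90. RHTO_06784, described as DnaJ subfamily C member 7 and as stress-induced phosphoprotein 1, the co-chaperone that bridges HSP70 and HSP90, had 254 and 511 counts and was 2.10-fold (1.80 to 2.45) higher in the Pi-replete-labelled library. RHTO_02627, with 57 and 158 counts, was 2.90-fold (2.13 to 3.99) higher there, but its first KEGG description is phosphomannomutase, an enzyme of mannose metabolism.

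The 4 J proteins with the other direction included 2 that are known for work in an organelle. RHTO_05266 is described as subfamily C member 7 and as SCJ1, in Saccharomyces cerevisiae a J protein of the endoplasmic reticulum lumen. It had 1196 counts (201 RPKM) in the Pi-limited-labelled library and 519 counts (91.0 RPKM) in the Pi-replete-labelled library, 2.21-fold (1.99 to 2.45) higher in the former. HscB (RHTO_07067), the mitochondrial J protein of iron-sulfur cluster assembly, had 605 and 205 counts (129 and 45.5 RPKM), higher by 2.83-fold (2.41 to 3.33) in the same library. RHTO_03145, a DnaJ-domain protein of the subfamily C member 9 type, had 176 and 57 counts and was 2.96-fold (2.18 to 4.06) higher in the Pi-limited-labelled library, opposite in direction to RHTO_02124 and RHTO_02627, which carry that description too. RHTO_01035, described as subfamily C member 7, had 102 and 32 counts and was 3.05-fold (2.03 to 4.69) higher there.

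The remaining chaperones do not act in general protein folding, and all 3 were higher in the Pi-limited-labelled library. BCS1 (RHTO_06093), a mitochondrial AAA protein that inserts the Rieske iron-sulfur protein into respiratory complex III, had 67 and 14 counts (6.34 and 1.38 RPKM), 4.58-fold (2.55 to 8.83) higher there. A copper chaperone (RHTO_06789), which carries copper through the cytosol, had 214 and 89 counts and was 2.30-fold (1.79 to 2.98) higher. ASF1 (RHTO_03743), which hands histones H3 and H4 to chromatin assembly, had 447 and 199 counts and was 2.15-fold (1.82 to 2.55) higher.

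**Figure D2:**
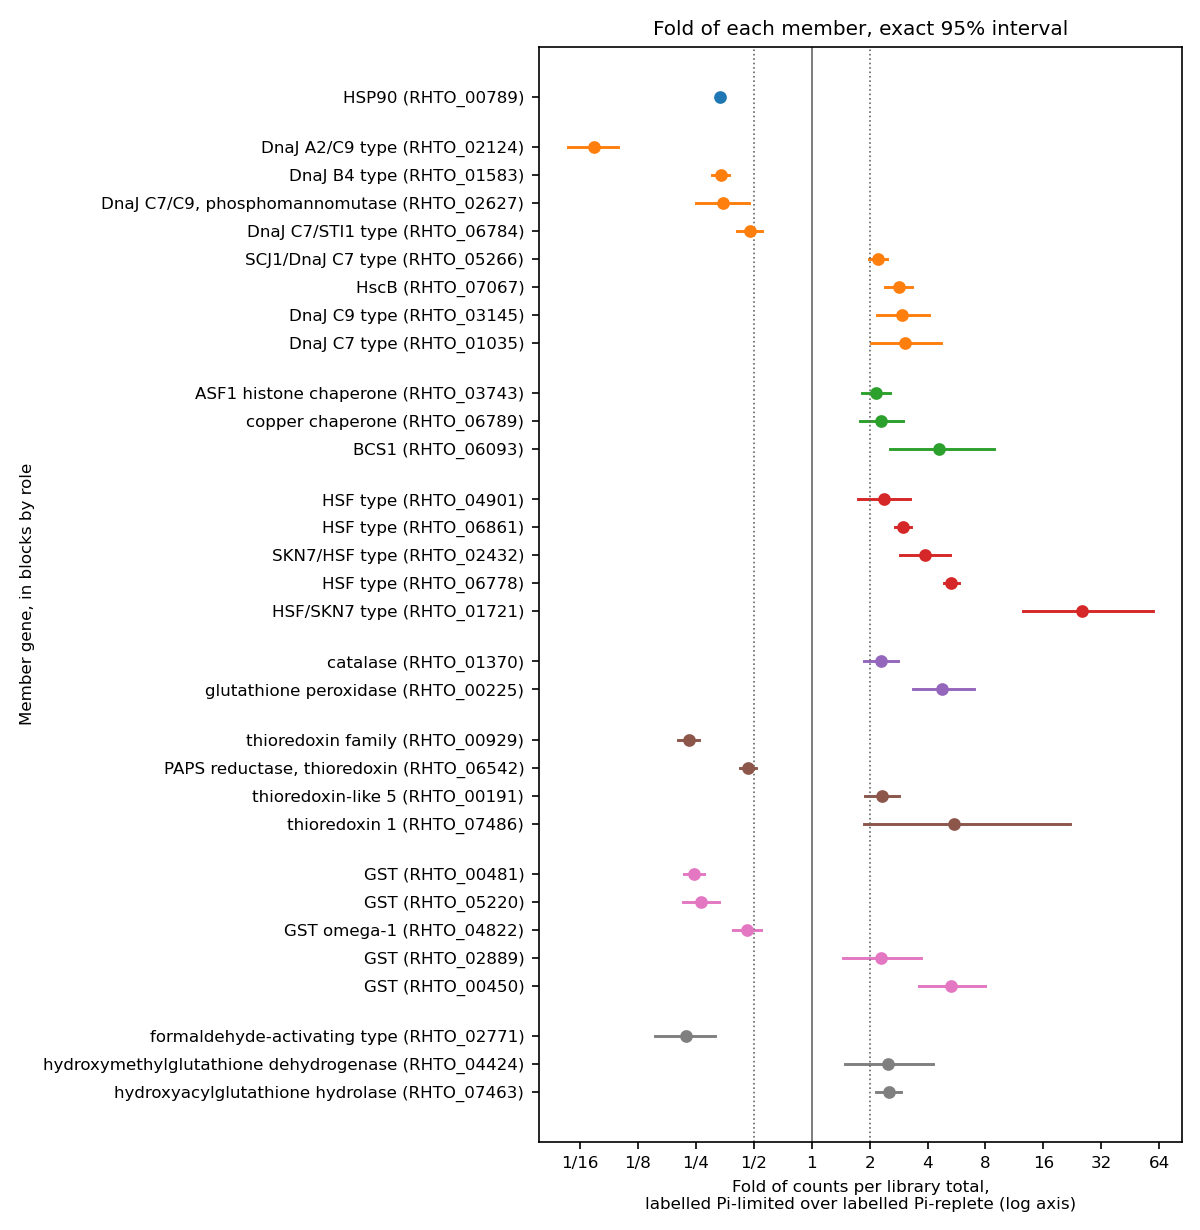
Fold of counts per library total, labelled Pi-limited over labelled Pi-replete (log axis), for each member with its exact 95% interval of counting error, coloured by role; the solid line marks no difference and the dotted lines 2-fold. The interval of HSP90 is narrower than its point, whereas that of thioredoxin 1 (23 and 4 counts) runs from 1.88 to 21.9.

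The 5 genes described as heat shock factors had 5306 counts (5164 to 5451) in the Pi-limited-labelled library and 1224 counts (1156 to 1295) in the Pi-replete-labelled library, a 4.15-fold difference of the sums (3.90 to 4.42). Their median log2 ratio was 1.95. With the median of the listed genes set to 0, RHTO_01721 and RHTO_06778 were still over 2-fold higher in the Pi-limited-labelled library. RHTO_02432, RHTO_06861 and RHTO_04901 then had log2 ratios of 0.85, 0.48 and 0.15, and the fold of RHTO_04901 (1.11, 0.812 to 1.52) had an interval on both sides of 1. That median, 1.10, lies just past the 2-fold filter, so any gene little over 2-fold higher falls near 0 with this centring. In the Pi-limited-labelled library most of these counts came from RHTO_06778, with 2930 counts (432 RPKM) in the Pi-limited-labelled library and 526 counts (80.9 RPKM) in the Pi-replete-labelled library, 5.33-fold (4.86 to 5.86) higher in the former. By mean RPKM it was the member next below HSP90. RHTO_06861, the one with the most counts in the Pi-replete-labelled library, had 1785 and 573 counts (156 and 52.2 RPKM), higher by 2.98-fold (2.71 to 3.28) in the Pi-limited-labelled library.

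The largest ratio of any member belonged to RHTO_01721, with 211 counts (17.3 RPKM) in the Pi-limited-labelled library and 8 counts (0.684 RPKM) in the Pi-replete-labelled library, 25.3-fold (12.6 to 59.3). KEGG describes it as a heat shock factor and as SKN7, in Saccharomyces cerevisiae a response regulator of the osmotic and oxidative stress pathways whose DNA-binding domain resembles that of heat shock factors. The best BLAST hit of RHTO_01721 is a putative chloride channel protein, so its identity as a transcription factor rests on the KEGG text. RHTO_02432 carries the same pair of KEGG descriptions and had 234 and 58 counts, higher by 3.86-fold (2.89 to 5.24) in the Pi-limited-labelled library. RHTO_04901 had 146 and 59 counts and was 2.37-fold (1.74 to 3.26) higher there. None of the 5 has a best hit named as a heat shock factor. The 4 other than RHTO_01721 hit hypothetical proteins of other fungi.

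Enzymes that destroy peroxides were represented by a catalase and a glutathione peroxidase, both higher in the Pi-limited-labelled library. The catalase (RHTO_01370), which splits hydrogen peroxide, had 341 and 142 counts (24.3 and 10.6 RPKM), 2.30-fold (1.88 to 2.82) higher there. Glutathione peroxidase (RHTO_00225), best hit GPX2 of the smut Sporisorium reilianum, had 189 counts (64.4 RPKM) in the Pi-limited-labelled library and 38 counts (13.5 RPKM) in the Pi-replete-labelled library, 4.76-fold (3.35 to 6.94) higher in the former. With median centring its fold was 2.22 (1.56 to 3.24), whereas that of the catalase was 1.07 (0.880 to 1.32), an interval on both sides of 1. Superoxide, peroxiredoxin and glutaredoxin terms matched 0 listed descriptions, as did glutathione reductase, thioredoxin reductase and the enzymes of glutathione synthesis, and those genes are not analysed here.

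Thioredoxin descriptions covered 4 genes of different kinds. RHTO_00929, a thioredoxin family protein of 1902 bases of coding length, had 324 counts (28.9 RPKM) in the Pi-limited-labelled library and 1348 counts (126 RPKM) in the Pi-replete-labelled library, 4.35-fold (3.85 to 4.92) higher in the latter. RHTO_06542, phosphoadenylyl-sulfate reductase, uses thioredoxin to reduce activated sulfate on the way to cysteine. It had 622 and 1279 counts (114 and 245 RPKM), higher by 2.15-fold (1.95 to 2.37) in the Pi-replete-labelled library. The shorter genes had the other direction: thioredoxin-like protein 5 (RHTO_00191, 396 bases) had 334 and 138 counts and was 2.32-fold (1.89 to 2.85) higher in the Pi-limited-labelled library, and thioredoxin 1 (RHTO_07486, 312 bases) had 23 and 4 counts. Those counts are the lowest of the members in each library, and the 5.50-fold difference of thioredoxin 1 has an interval from 1.88 to 21.9.

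Among the 5 glutathione S-transferases, 3 were higher in the Pi-replete-labelled library and 2 in the Pi-limited-labelled library. The 3 had the higher mean RPKM, but that mean includes the library in which they were higher. In the Pi-limited-labelled library alone, RHTO_00450 (42.6 RPKM) lay above RHTO_04822 (35.5 RPKM) and RHTO_05220 (22.9 RPKM). RHTO_00481, the highest, had 345 counts (72.6 RPKM) in the Pi-limited-labelled library and 1354 counts (297 RPKM) in the Pi-replete-labelled library, 4.10-fold (3.64 to 4.63) higher in the latter. RHTO_05220 had 110 and 394 counts and was 3.74-fold (3.02 to 4.67) higher there, and the omega-1 type RHTO_04822 had 205 and 425 counts and was 2.17-fold (1.83 to 2.57) higher. Both others were higher in the Pi-limited-labelled library: RHTO_00450 had 177 counts (42.6 RPKM) there and 32 counts (8.05 RPKM) in the Pi-replete-labelled library, 5.30-fold (3.62 to 7.98), and RHTO_02889 had 67 and 28 counts, 2.29-fold (1.45 to 3.70). RHTO_00481 and RHTO_02889 share 1 best hit, a glutathione S-transferase of Rhodotorula glutinis, yet took opposite directions. Summed over the 5 genes, the counts were 904 and 2233, 2.58-fold (2.39 to 2.79) higher in the Pi-replete-labelled library.

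Glutathione also takes part in the enzymatic removal of aldehydes. A gene similar to glutathione-dependent formaldehyde-activating enzymes (RHTO_02771) had 39 counts (15.9 RPKM) in the Pi-limited-labelled library and 168 counts (71.4 RPKM) in the Pi-replete-labelled library, 4.50-fold (3.16 to 6.55) higher in the latter. S-(hydroxymethyl)glutathione dehydrogenase (RHTO_04424), the next enzyme of formaldehyde oxidation, also described as an alcohol dehydrogenase, had the other direction with 57 and 22 counts, higher by 2.48-fold (1.49 to 4.26) in the Pi-limited-labelled library. RHTO_07463 had 659 and 251 counts (71.7 and 28.5 RPKM), higher by 2.51-fold (2.17 to 2.92) in that library. KEGG describes it as hydroxyacylglutathione hydrolase, which completes the detoxification of methylglyoxal, but its best BLAST hit is an amino acid transporter.

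**Figure D3:**
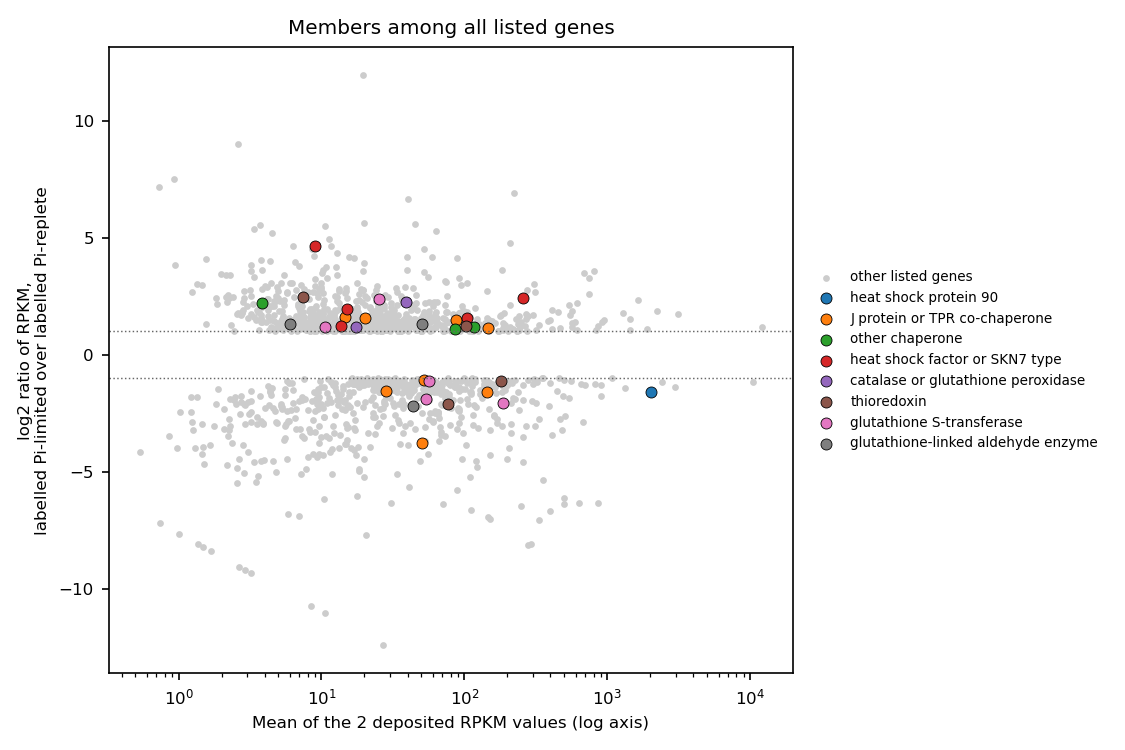
The log2 ratio of RPKM (labelled Pi-limited over labelled Pi-replete) against the mean of the 2 RPKM values (log axis) for all 1402 listed genes, with the members coloured by role and the remaining listed genes in grey; dotted lines mark the 2-fold filter. HSP90, rank 7 of all listed genes by mean RPKM, lies furthest right of the members at a log2 ratio of -1.58. The heat shock factor type genes lie above the upper line, with RHTO_01721 at 4.66.

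The members differed in how well their descriptions are founded. KEGG text alone matched 17, BLAST text alone 7, and both texts 7. More than 1 KEGG entry was given for 7 members, a hypothetical or unnamed protein was the best hit of 15, and 6 had a BLAST e-value above 1e-20. Among the 14 genes matched in the BLAST text, 7 were higher and 7 lower in the Pi-limited-labelled library. The members had a median mean RPKM of 50.6, beside 23.1 for all listed genes, and a median coding length of 987 bases, beside 1287. None of the 31 lies next to another in the gene order of the NP11 reference strain. A direct neighbour of 9 members was listed, 10 such genes in all, of which 7 had the same direction as the member. The same share over all neighbouring listed genes was not worked out, so nothing can be read from this count. The neighbours of HSP90 took both directions, RHTO_00788 with 16 and 45 counts and RHTO_00790 with 995 and 413 counts. Whether counting used strand was not given in the sources used here, so reads of overlapping genes cannot be told apart.

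Genes that work with these systems, taken from lists of search terms, showed further differences. Folding enzymes other than chaperones were higher in the Pi-limited-labelled library in 5 of 5 cases, beside 58.3% of all listed genes. Their median log2 ratio was 1.37, or 0.27 with median centring, beside 1.10 for all listed genes. They included a protein disulfide-isomerase of the A6 type (RHTO_02270), which forms disulfides in the endoplasmic reticulum, with 185 and 61 counts, 2.90-fold higher, and a peptidylprolyl isomerase that BLAST names as a protein phosphatase 2A activator (RHTO_04183), with 298 and 48 counts, 5.94-fold higher. Proteasome and ubiquitin genes divided into 10 higher, or 58.8% beside 58.3% of all listed genes, and 7 lower. Their median log2 ratio was 1.03, or -0.07 with median centring. Named for the higher side, the ubiquitin-conjugating enzyme RHTO_04950 had 109 and 25 counts, a 4.17-fold difference (2.68 to 6.73). Among the 7 lower ones was RHTO_07873, described as polyubiquitin, the source of the tag for protein breakdown. It had 22 and 121 counts (0.801 and 4.60 RPKM), higher by 5.74-fold (3.63 to 9.51) in the Pi-replete-labelled library. A second polyubiquitin (RHTO_01052), picked with its values in view, had 530 and 2294 counts, and as near-identical copies may share reads the separate values are uncertain. RHTO_06566, described as a proteasome ATPase subunit and also as a ribosome biogenesis ATPase, had 439 and 2207 counts, 5.25-fold (4.74 to 5.83) in the same direction. A disaggregase that the rule did not take in, chosen after its values were seen, is described by KEGG as ClpB, the bacterial relative of the yeast HSP104 that pulls proteins out of aggregates. This gene, RHTO_04775, had 1074 counts (66.7 RPKM) in the Pi-limited-labelled library and 8546 counts (554 RPKM) in the Pi-replete-labelled library, 8.31-fold (7.80 to 8.86) higher in the latter, the same direction as HSP90.

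Glutathione contains cysteine, and genes matched by terms for sulfur amino acid metabolism, sulfate and gamma-glutamyl enzymes were lower in the Pi-limited-labelled library in 9 of 10 cases (median log2 ratio -2.52), the direction of phosphoadenylyl-sulfate reductase above. The list is mixed: cystathionine gamma-synthase and beta-lyase lead from cysteine toward methionine, and RHTO_03549 (89 and 272 counts) is a sulfate permease. Its largest ratios were those of RHTO_05589, described as a cystathionine lyase and synthase, with 121 and 2535 counts (21.9-fold), and of RHTO_02616, an O-acetylhomoserine sulfhydrylase, with 65 and 1359 counts (21.8-fold). Gamma-glutamyltranspeptidase (RHTO_06762), which begins the breakdown of glutathione and was matched by the same list, had 159 and 858 counts, higher by 5.64-fold (4.75 to 6.72) in the Pi-replete-labelled library. Its values were seen before it was chosen. Aldehyde and quinone detoxification genes were higher in the Pi-limited-labelled library in 9 of 12 cases, or 75.0%, beside 58.3% of all listed genes. Their median log2 ratio was 1.48, or 0.38 with median centring, beside 1.10 for all listed genes. The aldo-keto reductase RHTO_03816 had 86 and 5 counts there, 16.5-fold, and RHTO_06709, described by KEGG as a malonate-semialdehyde dehydrogenase but with a polyprotein as best BLAST hit, had 101 and 18 counts, 5.37-fold in the same direction. Stress signalling genes other than the heat shock factor type were lower in the Pi-limited-labelled library in 6 of 8 cases. That is 75.0%, beside 41.7% of all listed genes, and 4 of the 8 had under 100 counts in both libraries. Their median log2 ratio was -2.63 (-2.54 with the gene at 0 counts set to its bound), beside 1.10 for all listed genes. They included SSK1 (RHTO_00471), in Saccharomyces cerevisiae the response regulator above the osmotic stress kinase HOG1, with 140 and 810 counts, higher by 6.04-fold (5.05 to 7.28) in the Pi-replete-labelled library, and a gene described by KEGG as a p38 MAP kinase, the mammalian relative of HOG1 (RHTO_03302), with 73 and 446 counts, 6.38-fold (4.97 to 8.29) higher there. The best hit of RHTO_03302 is a Pol-like protein. The 2 higher genes of this list, named for the other direction, were a MAP kinase kinase kinase (RHTO_02396) and a putative response regulator (RHTO_05764). They had 318 and 143 counts, and 29 and 5 counts. Oxidases that release hydrogen peroxide were few, with 2 higher and 2 lower: a galactose oxidase (RHTO_07502) had 235 and 16 counts and a copper amine oxidase (RHTO_06618) 18 and 134 counts. The NADPH supply terms matched 1 gene in each direction, malic enzyme (RHTO_03795, 554 and 1922 counts) and an NADP-dependent glutamate dehydrogenase (RHTO_04650, 1281 and 287 counts), which uses NADPH. Also, an alpha,alpha-trehalase (RHTO_05929), which splits the stress sugar trehalose, had 42 and 168 counts.

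**Figure D4:**
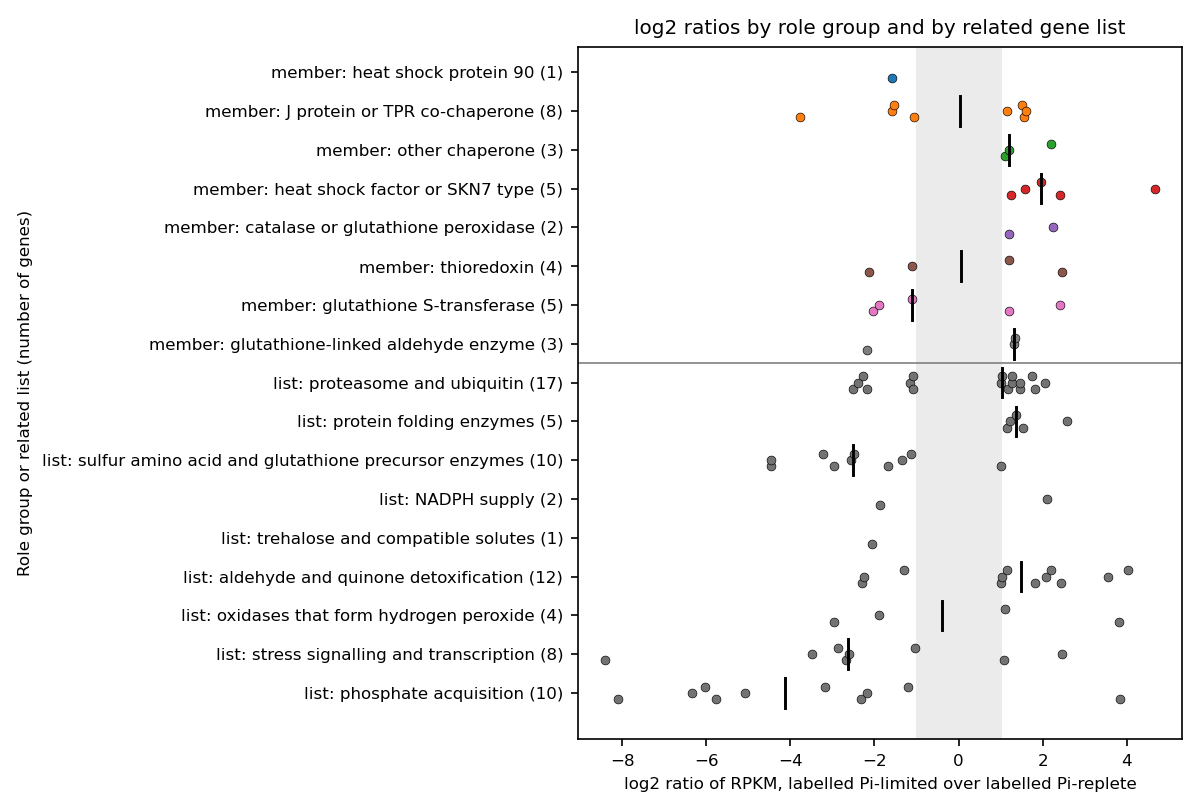
The log2 ratio of RPKM (labelled Pi-limited over labelled Pi-replete) of every gene, by role group of the members (coloured) and by related list (grey), with a bar at the median where a group has more than 2 genes; the grey band holds the ratios under 2-fold that the table leaves out. The heat shock factor type and the folding enzymes lie wholly to the right of the band, HSP90 lies to the left, and J proteins and thioredoxins lie on both sides; the stress signalling gene at the far left had 0 counts in the Pi-limited-labelled library, so its place is set by the 0.01 that stands for 0 counts.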

How the data were processed

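Per the labels' protocols, chemostats had a working volume of 2.0 litre and 40 ml of culture was taken onto ice for each RNA preparation. The submitters' processing notes name Cufflinks and DESeq but no version or role; aligner and build were not given in the sources used here. From the authors came 1 deposited table of filtered genes. Per the file headers it holds a raw count per gene and library, RPKM, their log2 ratio, a p-value and an FDR. Deposited count divided by length and RPKM gave 1 total per library. For 0 counts the deposited RPKM is 0.01. The number of genes tested was read from the authors' deposited p-value and FDR, whose quotient gave whole ranks (within 0.05) for all 1269 genes with a p above 1e-200. Among the members the largest FDR in the authors' deposited table was 6.44e-04. It compares the 2 libraries, not the conditions, and no p-value was added.

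Folds carry exact conditional binomial (Clopper-Pearson) intervals, which cover counting error only. On counts simulated with Poisson error alone, which the intervals assume, 95.7% of the intervals over 1402 genes held the simulated fold. No 2-fold filter was applied there, so this checks the calculation only. For a gene at 0 the bound takes 3 counts per library as floor. TMM factors came from edgeR 4.0.16, all other values from Python 3.11.15 with scipy 1.17.1. Members, roles and lists were chosen with earlier results of these data known. Roles were assigned from the deposited descriptions. Every member may be named, and of related lists mainly the 2 genes with the largest ratios and at least 50 counts, with exceptions stated. All 31 members matched the RHOziaDV1.0 gene table, used only for gene order. For 99.4% of genes the deposited length is a multiple of 3, so it is a coding length. Another 2 genes matched the terms but had a proteophosphoglycan best hit.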

Additional observations from a re-analysis of the deposited data

How the results depend on the processing

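Equal totals over the listed genes, TMM scaling and log2 of RPKM plus 1 could turn no member, as each of the 31 differs at least 2-fold by the filter. Centring left 6 members at least 2-fold higher in the Pi-limited-labelled library, with a median log2 ratio of 0.10. The median was 1.51 with equal totals (20 higher, 8 lower, 71.4% higher beside 65.2% of all listed genes) and 1.03 with TMM scaling (18 and 11, 62.1% beside 51.9%). Members that differed at least 4-fold gave 6 higher and 4 lower with a median of 2.22, members matched in both texts 5 and 2 with 1.50, and members matched in the BLAST text 7 and 7 with 0.05. The number of members falls in these by construction. The log2 fold of the summed counts, -0.96, became 0.16 without HSP90, -2.06 with median centring, -0.65 with equal totals and -1.13 with TMM scaling. Groups split evenly have a median between the sides that no gene holds, so its sign says nothing: the J protein median turned from 0.04 to -1.06 with centring and -0.14 with TMM scaling, the thioredoxin median from 0.05 to -1.04 and -0.12, and that of NADPH supply to -0.98 and -0.05. The proteasome and ubiquitin median turned to -0.07 with centring. Medians of role groups and lists, and the sum without HSP90, were alternatives chosen after seeing the data. No paired analysis was possible because there is 1 library per condition, and for the same reason no library could be left out. Depth limits thioredoxin 1 most, with 4 counts in the Pi-replete-labelled library.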

Other observations

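A pair of genes outside the group matched its terms, as both are described by KEGG as stress-induced phosphoprotein 1, but both have a proteophosphoglycan as best hit. RHTO_01215 had 537 counts with the Pi-limited label and 243 with the Pi-replete label, 2.12-fold (1.81 to 2.47) higher in the former. RHTO_08116 had 432 and 23 counts. With both put back, 22 matching genes were higher and 11 lower in the Pi-limited-labelled library, beside 58.3% and 41.7% of all listed genes.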
